A study of Mus musculus with 46 samples.

Results

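The 78 genes described here encode proteins of the mitochondrial ribosome, measured in AB1-HA mesothelioma tumors of mice before and after cyclophosphamide (CY) chemotherapy. They are all the rows of the count table whose symbol is Mrpl or Mrps followed by a number and at most 1 lower-case letter, out of 46011 complete gene rows. Values of expression did not enter this rule. Of the 78 members, 51 belong to the large subunit of the mitochondrial ribosome, 26 belong to the small subunit, and Mrps36 carries a small subunit name but was later assigned to the α-ketoglutarate dehydrogenase complex of the citric acid cycle. All 78 passed the filter on low counts in every comparison.

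The mitochondrial ribosome, or mitoribosome, translates the few messenger RNAs encoded by mitochondrial DNA, whose products are all subunits of the respiratory chain and ATP synthase. Its proteins are encoded in the nucleus, made in the cytosol and imported, and they assemble on ribosomal RNA that is transcribed inside the mitochondrion. Some of them descend from proteins of the bacterial ribosome, and others are particular to mitochondria. Tumor cells and activated immune cells both use mitochondrial translation, so in a whole tumor the RNA of these genes comes from many cell types.

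Male BALB/c mice, 8 to 10 weeks old, carried a tumor under the skin of each flank, grown from AB1-HA, an established line of murine mesothelioma, and all received 200 mg/kg CY on day 10. In each mouse 1 tumor was removed for sequencing and the other showed the response. The response was either complete (CR) or given in the labels as PR, a group that the study's text calls progressors. Removal fell on day 9 (Day-1, 13 CR and 13 PR tumors), day 13 (Day+3, 5 CR and 5 PR tumors) or day 17 (Day+7, 5 CR and 5 PR tumors), and all 46 tumors came from different mice. AB1-HA is a single cell line, and no untreated tumor at Day+3 or Day+7 was analysed here, so CY, the age of the tumor and the depth of the libraries cannot be told apart between days.

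Total counts per tumor were 10227681 to 14218987 at Day-1, 15412744 to 18748688 at Day+3 and 16047930 to 19446596 at Day+7. Levels are given as CPM, counts relative to the library total after scaling by the trimmed mean of M-values (TMM), with scaling factors of 0.849 to 1.13, and CPM is not divided by transcript length unless stated. Over 196 pairs of libraries within groups, 0 held identical values. Of the 7 mesothelial markers covered, Msln averaged 385 ± 76.0 CPM at Day-1 (SD, n = 26), 353 ± 44.1 at Day+3 and 65.9 ± 22.2 at Day+7 (n = 10 each). Krt8 averaged 12.3 ± 6.44, 28.9 ± 29.4 and 0.918 ± 1.33 CPM at these days. Krt18, Krt19, Lrrn4, Bnc1 and Gpm6a averaged below 1 CPM at every day. The keratinocyte gene Krt5, a sign of skin in the sample, exceeded 10 CPM in 16 tumors, 10 of them at Day-1, 1 at Day+3 and 5 at Day+7. In 18 members at least 25% of the 31-base words of the transcripts also occur in another gene, so the counting could divide their reads. Mrpl53, for which this share is 100% (with Gm42688), is uncertain, as are Mrps25 (74.6%), Mrps18b (62.6%), Mrps34 (55.6%), Mrpl27 (54.0%) and Mrpl23 (53.0%).

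The members were expressed at moderate levels before CY. Mean levels at Day-1 ran from 17.3 CPM for Mrpl34 to 131 CPM for Mrpl51. Per kilobase of transcript, the highest Day-1 levels were those of Mrpl20 (157 CPM per kilobase), Mrpl42 (156), Mrpl33 (154) and Mrpl52 (145). The lowest were those of Mrpl1 (8.36 CPM per kilobase), Mrpl57 (9.37), Mrpl19 (9.93) and Mrpl35 (11.1). Mrpl20, Mrpl33 and Mrpl35 are counterparts of bacterial L20, L33 and L35, and Mrpl1 is the counterpart of the L1 stalk protein. Mrpl42, Mrpl52 and Mrpl57 are particular to mitochondria. Within a group of tumors the members varied less than most genes, with a median SD of 0.105 on the log2 scale at Day-1, 0.0901 at Day+3 and 0.106 at Day+7, against 0.267, 0.203 and 0.277 over all 13194 genes tested, which on the whole have lower counts. As a description, the mean correlation between pairs of members over the tumors of a day, around their group means, was 0.240, 0.263 and 0.296. Over pairs of all 13194 genes tested it was 6.14e-04, 0.00320 and 0.00351, and all pairs share the same libraries.

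Summed over the 78 members, the level was 4180.0 ± 166 CPM at Day-1 (SD, n = 26), 4637 ± 169 at Day+3 and 4581 ± 181 at Day+7 (n = 10 each). CR tumors summed to 4126 ± 148 CPM at Day-1 (n = 13), 4605 ± 179.7 at Day+3 and 4575 ± 237 at Day+7 (n = 5 each). PR tumors summed to 4234 ± 169.9 CPM (n = 13), 4668 ± 171 and 4588 ± 133 (n = 5 each) at the same days. The ranges of CR and PR tumors overlapped at each day. Large subunit members summed to 2848, 3146 and 3131 CPM and small subunit members to 1306, 1467 and 1414 CPM at the 3 days. All of these sums depend on the TMM scaling. Under total counts the members' median log2 fold change against Day-1 was 0.26 at Day+3 and -0.06 at Day+7. The median of all genes was then 0.10 and -0.17.

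**Figure D1:**
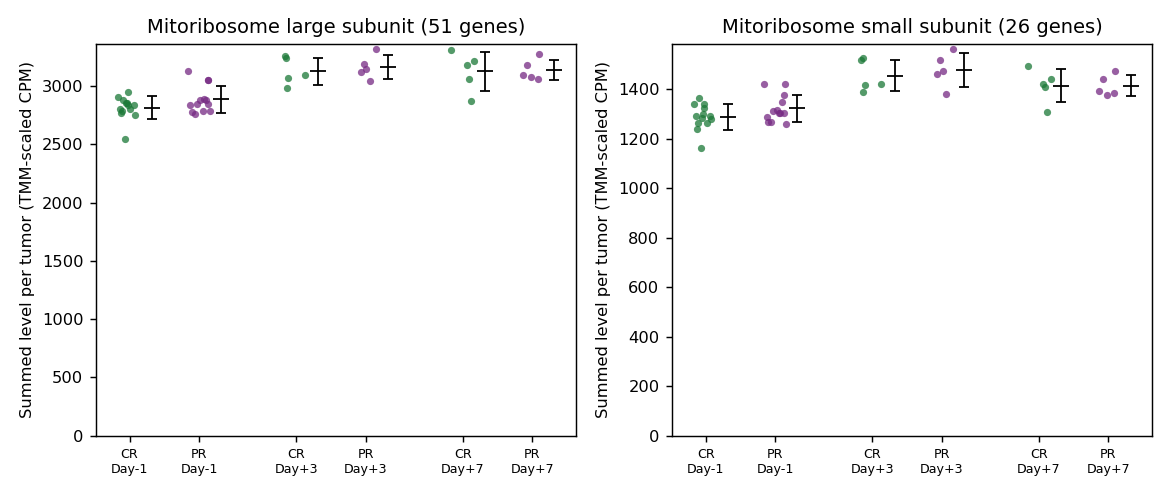
Summed level of the large subunit members and of the small subunit members (CPM, TMM-scaled) in each tumor, by response and day, with points for tumors and bars for the mean ± SD of each group. CR and PR tumors overlap at each day, and with TMM the sums after CY lie mostly above those at Day-1. Under total counts the members' median log2 fold change at Day+7 against Day-1 was -0.06.

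Between days the mitoribosome genes did not move as a block. At Day+3, 44 members were higher and 23 were lower than at Day-1, at an adjusted p under 0.1 (edgeR's quasi-likelihood test with Benjamini-Hochberg adjustment over 13194 genes, CR and PR weighted equally). In the same comparison 37.9% of all genes tested were higher and 39.6% lower, so 56.4% and 29.5% of the members stand against a background in which most genes were called. The median log2 fold change of the members was 0.14, against -0.02 for all genes tested. Their median absolute change was 0.26, against 0.47 for all genes. In 21 members every Day+3 tumor lay above every Day-1 tumor, and in 8 every Day+3 tumor lay below, where 12.2% and 14.7% of all genes tested showed no overlap in these directions. Because these are whole tumors, fewer cells of a type and less RNA per cell cannot be told apart.

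At Day+7, 41 members were higher and 23 lower than at Day-1, with 43.0% of all genes higher and 42.8% lower. The median log2 fold change was 0.10 for the members and -0.01 for all genes, and the median absolute change was 0.28 for the members and 0.76 for all genes. In 22 members every Day+7 tumor lay above every Day-1 tumor and in 6 every tumor lay below, against 19.8% and 19.5% of all genes. Both comparisons use the same Day-1 tumors. Between Day+7 and Day+3, 29 members were higher and 27 lower, with 38.8% of all genes higher and 36.5% lower, and the median was 0.01 for the members and 0.02 for all genes. Without PR Day+7 replicate 3 the members' median was -0.04. Here 5 members lay above and 8 below without overlap, against 19.2% and 17.2% of all genes. All 78 members fell between the 5th and 95th percentile of the log2 fold changes of all genes in each of the 3 comparisons.

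**Figure D2:**
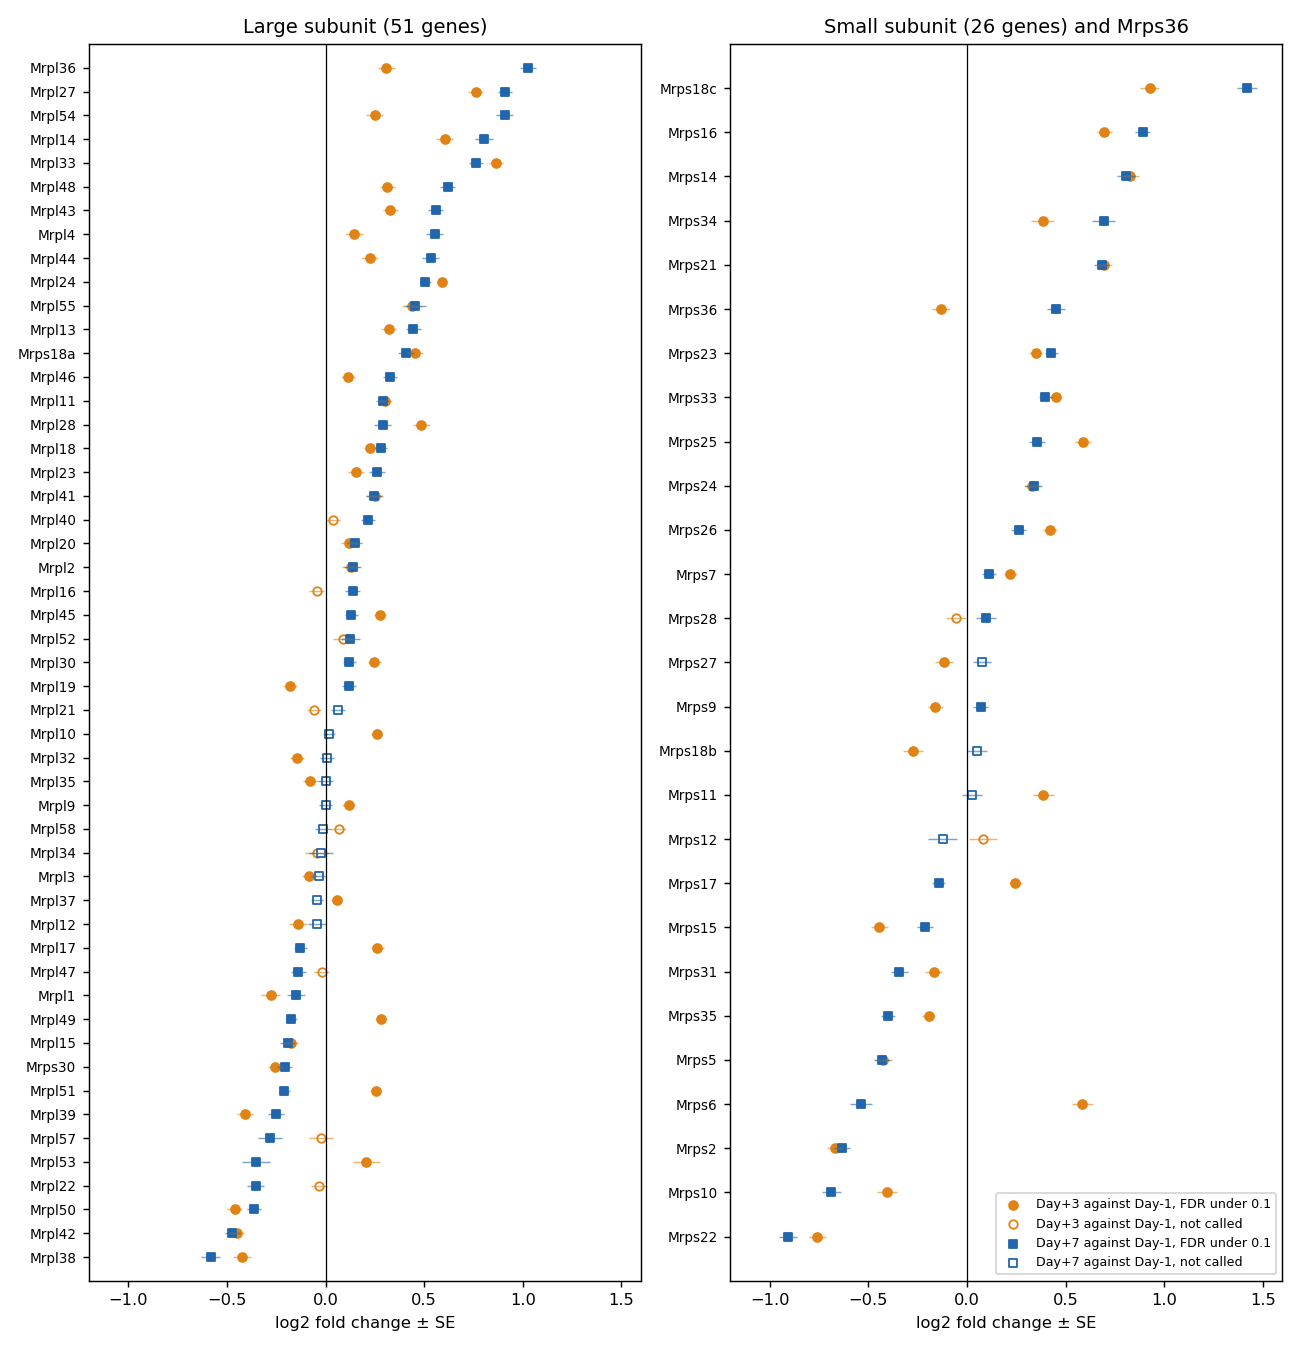
Log2 fold change of each of the 78 members with its SE, Day+3 against Day-1 and Day+7 against Day-1, with a panel for the large and a panel for the small subunit (with Mrps36) and filled points for an adjusted p under 0.1. At Day+3, 44 members were called higher and 23 lower, and at Day+7, 41 were called higher and 23 lower, with Mrps18c highest and Mrps22 lowest at both days.

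The split into higher and lower depends on the scaling. With total counts in place of TMM, the median of all genes moved to 0.10 at Day+3, -0.17 at Day+7 and -0.26 for Day+7 against Day+3, and 52 members were then higher and 14 lower at Day+3, 30 higher and 38 lower at Day+7, and 5 higher and 63 lower at Day+7 against Day+3. All genes tested divided as 44.5% higher and 33.1% lower, 37.4% and 48.9%, and 26.6% and 52.3%. Relative to the median of all genes, the median of the members was 0.16, 0.11 and -0.01 with TMM and 0.16, 0.11 and -0.01 with total counts. The sign of a called member changed under total counts in 3 members at Day+3 (Mrpl3, Mrpl35 and Mrps27), in 10 at Day+7 and in 19 at Day+7 against Day+3. Without the 16 tumors above 10 CPM of Krt5, 49 members were higher and 15 lower at Day+3, with 40.7% of all genes higher and 33.6% lower and a median of 0.22 for the members and 0.06 for all genes.

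The member that rose most was Mrps18c (chromosome 5, 100798627 to 100804471, plus strand, GRCm38), a small subunit protein and a counterpart of bacterial S18. At Day-1 the lowest tumor had 20.3 CPM of Mrps18c, the median was 25.5 and the highest had 31. At Day+3 it measured 45.6, 49.5, 48.2, 46.6 and 45.6 CPM in CR tumors and 46.6, 53.1, 48.0, 49.3 and 53.2 in PR tumors. At Day+7 it measured 75.3, 64.4, 83.5, 58.7 and 66.5 CPM in CR tumors and 65.3, 67.7, 74.9, 64.9 and 62.7 in PR tumors. No tumor of a later day overlapped with those of an earlier one. The log2 fold change of Mrps18c was 0.93 (SE 0.05) at Day+3 and 1.42 (SE 0.0492, 2.68-fold, edgeR adjusted p = 1.153e-28) at Day+7. Part of its transcript (32.3% of 31-base words) is shared with other genes, and the largest share with any 1 gene is 12%, with the gene model Gm43511.

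Mrpl33, the counterpart of bacterial L33 (chromosome 5, 31596935 to 31664384, plus strand), was higher at both later days than at Day-1. It was called lower at Day+7 than at Day+3. At Day-1 the lowest tumor had 63.9 CPM of Mrpl33, the median was 72.5 and the highest had 86. At Day+3 it measured 139, 128, 135, 136 and 123 CPM in CR tumors and 141, 141, 139.7, 130.2 and 129 in PR tumors. At Day+7 it measured 134, 125, 135, 122 and 121 CPM in CR tumors and 124, 123, 128, 125 and 114 in PR tumors. All later tumors lay above all Day-1 tumors, at log2 fold changes of 0.87 (SE 0.0354) and 0.77 (SE 0.0356, edgeR adjusted p = 6.950e-24), and 33.3% of its 31-base words are shared with Gm43809.

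Other members rose in a like manner. Mrpl27, whose bacterial counterpart L27 reaches towards the peptidyl transferase centre, averaged 38.4 ± 2.41 CPM at Day-1, 65.1 ± 3.83 at Day+3 and 72.1 ± 6.58 at Day+7, with log2 fold changes of 0.76 and 0.91. Mrps16, a counterpart of bacterial S16, averaged 41.3 ± 3.33, 66.9 ± 4.17 and 76.6 ± 5.31 CPM at these days. Mrps21, a counterpart of bacterial S21, averaged 49.4 ± 3.83, 80.1 ± 4.97 and 79.3 ± 4.68 CPM. Mrpl24, a counterpart of bacterial L24, which helps start the assembly of the large subunit in bacteria, averaged 100.1 ± 4.18, 151 ± 4.20 and 142 ± 10.5 CPM. In each of these 4 genes all later tumors lay above all Day-1 tumors, and the reads of Mrpl27 (54.0% shared, mostly with Gm6304) and Mrpl24 (39.7%, mostly with Rrnad1) could be divided with other genes.

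Mrpl36, Mrpl54, Mrps36 and Mrpl4 were higher at Day+7 than at Day+3. Mrpl36, a counterpart of the small bacterial protein L36, had a median of 23.8 CPM at Day-1 (lowest 21.3, highest 28.7). Its median was 29.6 CPM at Day+3 (lowest 26.1, highest 32.6) and 47.6 CPM at Day+7 (lowest 42.5, highest 54.5), so Day+7 tumors did not overlap with either earlier day. Its log2 fold change was 0.72 (SE 0.0522) at Day+7 against Day+3 and 1.03 (SE 0.0418, edgeR adjusted p = 4.656e-26) at Day+7 against Day-1. Mrpl54, a large subunit protein particular to mitochondria, averaged 68.3 ± 5.90 CPM at Day+7, against 43.2 ± 4.05 at Day+3. Mrpl4, whose bacterial counterpart lines the tunnel for the nascent protein, averaged 85.1 ± 6.16 CPM at Day+7, against 64.0 ± 7.00 at Day+3. With total counts the log2 fold changes at Day+7 against Day+3 were smaller, at 0.43 for Mrpl36, 0.37 for Mrpl54 (0.66 with TMM), 0.29 for Mrps36 (0.58 with TMM) and 0.12 for Mrpl4 (0.41 with TMM). For Mrpl4 the change at Day+3 against Day-1 was 0.26 with total counts and 0.14 with TMM, so which of these intervals held the larger change depended on the scaling. Mrps36, the member assigned to the α-ketoglutarate dehydrogenase complex, averaged 35.7 ± 4.24 CPM at Day+7, against 23.8 ± 1.71 at Day+3 and 26.1 ± 1.80 at Day-1. It was called lower at Day+3 than at Day-1 (log2 fold change -0.13), a call that was lost with total counts (-0.01), and 39.9% of its 31-base words are shared, mostly with Mrps36-ps1.

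The member that fell most was Mrps22 (chromosome 9, 98588730 to 98601660, minus strand), a small subunit protein particular to mitochondria whose mutation causes mitochondrial disease in humans. At Day-1 the lowest tumor had 34 CPM of Mrps22, the median was 40.6 and the highest had 49.7. At Day+3 it measured 23.9, 24.2, 23.6, 24.5 and 27.7 CPM in CR tumors and 22.6, 22, 24.7, 24.3 and 25.5 in PR tumors. At Day+7 it measured 22.3, 21.9, 23.7, 23.0 and 21.5 CPM in CR tumors and 20.5, 20.4, 22.3, 22.3 and 20.9 in PR tumors. All later tumors lay below all Day-1 tumors, with log2 fold changes of -0.76 (SE 0.0446) and -0.91 (SE 0.0453, edgeR adjusted p = 8.798e-23). None of its transcript words is shared with another gene.

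Mrps2, a counterpart of bacterial S2, averaged 80.7 ± 6.84 CPM at Day-1, 50.7 ± 2.58 at Day+3 and 52.0 ± 2.35 at Day+7, with log2 fold changes of -0.67 and -0.63. Mrpl42, a large subunit protein particular to mitochondria (chromosome 10, 95480805 to 95501940, minus strand), averaged 103 ± 8.01, 75.5 ± 4.14 and 74.3 ± 3.88 CPM. Mrps10, a counterpart of bacterial S10, averaged 53.8 ± 3.46, 40.7 ± 3.67 and 33.4 ± 4.54 CPM. Mrpl38, a large subunit protein particular to mitochondria, averaged 81.5 ± 6.71, 60.9 ± 3.73 and 54.4 ± 5.34 CPM. In these 4 genes all later tumors lay below all Day-1 tumors. Mrpl50 averaged 52.8 ± 3.89, 38.3 ± 1.97 and 41.0 ± 3.34 CPM and did not overlap with Day-1 at Day+3. Mrps15, a counterpart of bacterial S15, averaged 74.8 ± 6.20, 55.0 ± 3.24 and 64.5 ± 3.49 CPM and with TMM was lowest at Day+3. The sign of its change at Day+7 against Day+3 turned with total counts, so the order of these days depended on the scaling.

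**Figure D3:**
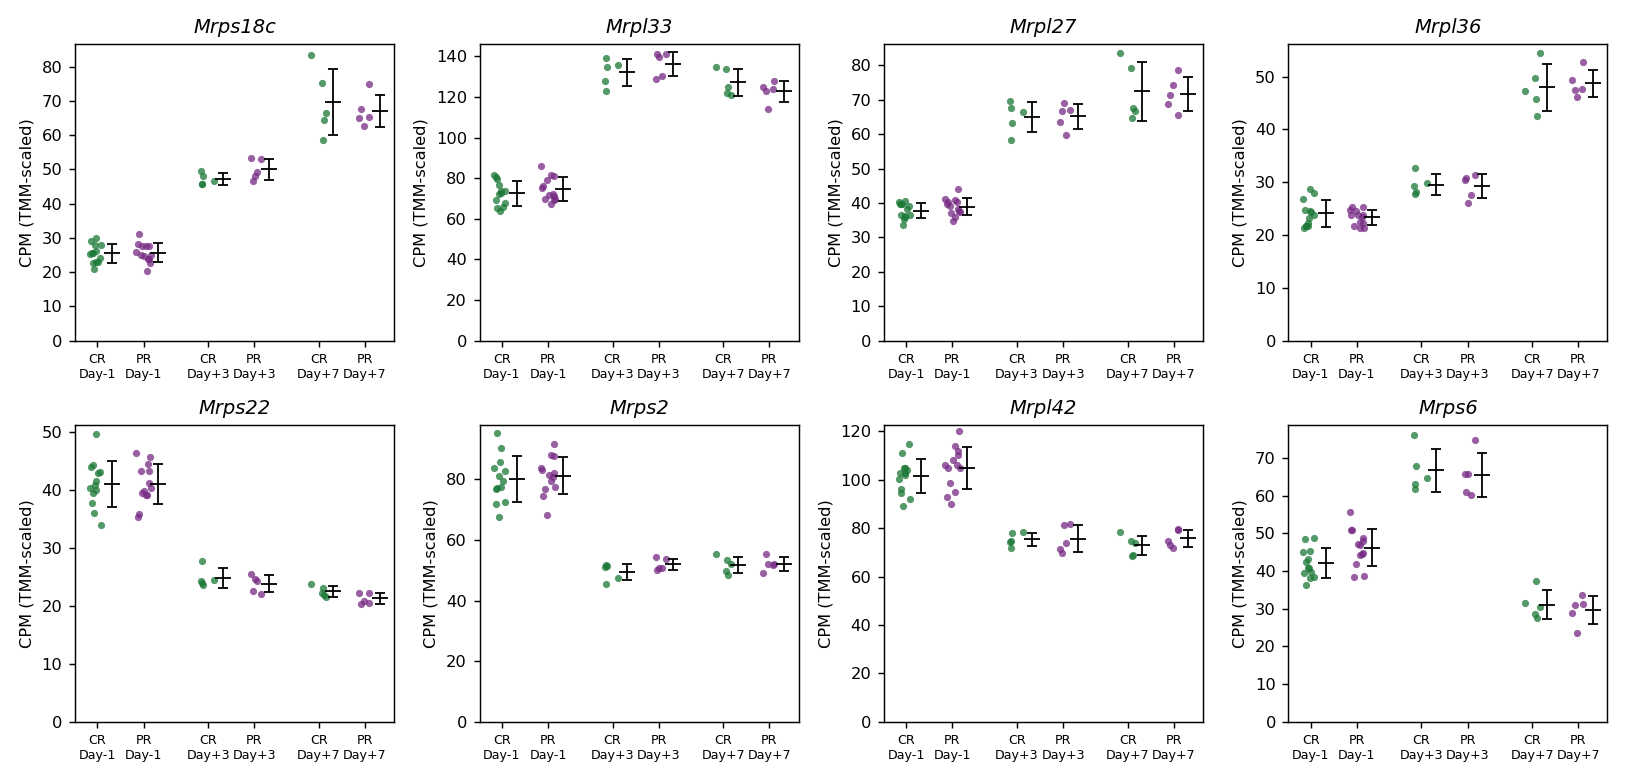
Level (CPM, TMM-scaled) of Mrps18c, Mrpl33, Mrpl27, Mrpl36, Mrps22, Mrps2, Mrpl42 and Mrps6 in each of the 46 tumors, by response and day, with bars for the mean ± SD of each group. The first 4 genes are higher at Day+7 than at Day-1 in every tumor, Mrps22, Mrps2 and Mrpl42 are lower, and Mrps6 is highest at Day+3.

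The promoter windows of the member that rose most, of 1 that rose early, and of a large and a small subunit member that fell are shown to place the motifs counted here. Each window holds 250 bases before and 50 bases after the annotated start in RefSeq (GRCm38.p6), written 5′ to 3′ on the strand of the gene, with capitals for exact matches on either strand to CCGGAAG (the ETS and GABP motif), GCATGCGC (NRF1), AAGATGGCG (YY1) or CACGTG (the E-box bound by Myc).
Mrps18c (chr5:100798509-100798808, plus strand): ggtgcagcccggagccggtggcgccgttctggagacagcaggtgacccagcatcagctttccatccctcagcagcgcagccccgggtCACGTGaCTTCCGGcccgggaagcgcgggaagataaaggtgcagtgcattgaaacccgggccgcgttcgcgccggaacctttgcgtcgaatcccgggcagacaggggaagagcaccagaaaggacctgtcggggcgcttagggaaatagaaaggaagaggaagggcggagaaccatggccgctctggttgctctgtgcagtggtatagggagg
Mrpl33 (chr5:31613701-31614000, plus strand): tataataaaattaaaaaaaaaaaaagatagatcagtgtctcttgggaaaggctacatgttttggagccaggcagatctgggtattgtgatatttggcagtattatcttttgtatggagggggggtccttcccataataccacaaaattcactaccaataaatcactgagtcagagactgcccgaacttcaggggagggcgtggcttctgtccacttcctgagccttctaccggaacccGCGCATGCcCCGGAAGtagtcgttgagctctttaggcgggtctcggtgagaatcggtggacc
Mrpl42 (chr10:95501900-95502199, minus strand): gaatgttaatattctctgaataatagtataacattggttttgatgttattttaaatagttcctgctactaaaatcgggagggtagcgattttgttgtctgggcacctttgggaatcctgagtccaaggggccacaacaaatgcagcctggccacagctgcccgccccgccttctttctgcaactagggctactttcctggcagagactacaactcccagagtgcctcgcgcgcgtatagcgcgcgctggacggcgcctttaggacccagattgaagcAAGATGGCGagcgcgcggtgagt
Mrps22 (chr9:98601630-98601929, minus strand): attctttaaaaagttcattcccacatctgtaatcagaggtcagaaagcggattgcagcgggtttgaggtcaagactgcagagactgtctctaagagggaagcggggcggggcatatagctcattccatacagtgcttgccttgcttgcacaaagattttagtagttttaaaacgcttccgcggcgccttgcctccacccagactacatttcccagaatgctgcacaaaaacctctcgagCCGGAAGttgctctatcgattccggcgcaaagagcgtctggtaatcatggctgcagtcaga
GABP and NRF1 are textbook activators of nuclear genes for mitochondrial proteins. Mrps18c holds the E-box beside CTTCCGG, the reverse of the ETS motif, Mrpl33 holds the ETS motif and GCGCATGC, the reverse of the NRF1 motif, Mrpl42 holds the YY1 motif, and Mrps22 holds the ETS motif. A window was found for 69 of the 78 members. The ETS motif was present in 26 of these (37.7%), against 9.93% of all genes with a window and 15.7% of those tested between days. The NRF1 motif was in 8 members (11.6%, against 3.05% of all genes and 4.57% of those tested). The YY1 motif was in 8 (11.6%, against 1.64% and 2.69%) and the E-box in 5 (7.25%, against 8.09% and 10.5%). In 31 members none of these letters was found in the window. Of the 26 members with the ETS motif, 13 were higher and 6 lower at Day+7 than at Day-1. Of the 43 without it, 22 were higher and 14 lower. At Day+3 these counts were 15 higher and 4 lower with the motif, and 25 higher and 15 lower without it.

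Some members changed direction with time. For Mrps6, a counterpart of bacterial S6, the lowest tumor at Day-1 had 36.2 CPM, the median was 44.4 and the highest had 55.6. At Day+3 it measured 63.1, 76.1, 68, 64.6 and 61.8 CPM in CR tumors and 61.1, 74.8, 65.9, 60.1 and 65.8 in PR tumors, above every Day-1 tumor. At Day+7 it measured 28.5, 27.6, 31.6, 37.3 and 30.5 CPM in CR tumors and 33.6, 31, 31.3, 28.9 and 23.5 in PR tumors, below every Day+3 tumor. Its log2 fold change was 0.59 (SE 0.0527) at Day+3 against Day-1, -0.54 (SE 0.0565) at Day+7 against Day-1 and -1.12 (SE 0.0661, edgeR adjusted p = 1.296e-19) at Day+7 against Day+3. Mrps6 overlaps Slc5a3 and Gm49711, and 33.8% of its 31-base words are shared, mostly with Gm49711.

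Mrpl51, Mrpl49, Mrpl17 and Mrps17 followed the same order of days with smaller changes. Mrpl51, particular to mitochondria, averaged 131 ± 7.25 CPM at Day-1, 156 ± 6.92 at Day+3 and 113 ± 5.11 at Day+7. Mrpl49, also particular to mitochondria, averaged 67.8 ± 3.86, 82.3 ± 3.25 and 60.1 ± 3.69 CPM. Mrpl17, a counterpart of bacterial L17, averaged 77.3 ± 4.70, 92.7 ± 5.37 and 70.7 ± 3.29 CPM. Mrps17, a counterpart of bacterial S17, averaged 103 ± 5.72, 122 ± 8.11 and 93.0 ± 5.35 CPM. In each of the 4 genes every Day+7 tumor lay below every Day+3 tumor, at log2 fold changes between -0.39 and -0.46. Mrpl19, a counterpart of bacterial L19, and Mrps9, a counterpart of bacterial S9, ran the other way, lower at Day+3 than at Day-1 (-0.18 and -0.16) and higher at Day+7 (0.12 and 0.07), but with total counts the signs at Day+7 changed (-0.05 and -0.10) and Mrps9 was not called at Day+3 (-0.04). Mrpl19 shares 41.3% of its 31-base words, mostly with Gcfc2.

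The paralogs of bacterial S18 differed from each other. Mrps18c, described above, rose at both days. Mrps18a, which sits in the large subunit, averaged 42.0 ± 2.59 CPM at Day-1, 57.6 ± 5.24 at Day+3 and 55.8 ± 4.62 at Day+7, with log2 fold changes of 0.46 and 0.41. Mrps18b, at a separate site in the small subunit, averaged 56.5 ± 5.10, 46.8 ± 4.67 and 58.5 ± 5.96 CPM. It was lower at Day+3 (log2 fold change -0.27, SE 0.0511), and its change of 0.05 at Day+7 did not pass the test (edgeR adjusted p = 0.3448). Mrps18b shares 62.6% of its 31-base words, mostly with Gm16279, so its value is uncertain.

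By role, both subunits held members that moved either way. The counts below stand beside 37.9% of all genes higher and 39.6% lower at Day+3, and 43.0% and 42.8% at Day+7. Of the 51 large subunit members, 30 were higher (58.8%) and 12 lower (23.5%) at Day+3, and 27 were higher (52.9%) and 14 lower (27.5%) at Day+7. Of the 26 small subunit members, 14 were higher (53.8%) and 10 lower (38.5%) at Day+3, and 13 were higher (50.0%) and 9 lower (34.6%) at Day+7. Large subunit members with a bacterial counterpart numbered 29, of which 17 were higher and 7 lower at Day+3 and 16 higher and 5 lower at Day+7. The 22 large subunit members particular to mitochondria had 13 higher and 5 lower at Day+3 and 11 higher and 9 lower at Day+7. For the small subunit, 9 of 16 with a bacterial counterpart were higher and 5 lower at Day+3, and 8 higher and 6 lower at Day+7. The 10 particular to mitochondria had 5 higher and 5 lower at Day+3, and 5 higher and 3 lower at Day+7. With total counts these role counts turned at Day+7 to 11 higher and 13 lower, 8 and 11, 5 and 9, and 5 and 5 in the same order of roles. All genes tested then divided as 37.4% higher and 48.9% lower.

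The rest of the mitochondrial translation system was described in the same fit, for genes that come before Pax7 in the alphabet. In that fit 37.9% of all genes were higher and 39.6% lower at Day+3, and 43.0% and 42.8% at Day+7. Of 4 other mitoribosome proteins, Aurkaip1 and Chchd1 were higher at both days (log2 fold changes of 0.44 and 0.46 for Aurkaip1, and 0.40 and 0.44 for Chchd1). Gadd45gip1, a large subunit protein also known as CRIF1, was lower (-0.44 and -0.81), and Dap3, a small subunit protein first described as a death-associated protein, was lower at Day+7 (-0.17). Of 20 assembly factors tested, 11 were higher and 7 lower at Day+3, and 10 higher and 8 lower at Day+7. Mettl17, a factor for the small subunit, was higher at Day+7 by 1.14, and Mterf4, which acts with the methyltransferase Nsun4 on mitochondrial ribosomal RNA, was higher by 1.41 at Day+3 and 0.78 at Day+7. The GTPases Noa1 (-0.84 and -1.15) and Gtpbp10 (-0.52 and -0.78), needed for the small and the large subunit, were lower at both days.

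With TMM, translation factors leaned downwards at Day+3. Of 13 tested, 2 were higher (15.4%) and 8 lower (61.5%) at Day+3, against 37.9% and 39.6% of all genes. At Day+7, 5 were higher (38.5%) and 7 lower (53.8%), nearer to the 43.0% and 42.8% of all genes. Their median log2 fold change was -0.18 at Day+3 and -0.17 at Day+7. The elongation factor Gfm1 was lower by -1.07 (SE 0.0385) at Day+3 and -1.15 (SE 0.0388) at Day+7. Guf1 (-0.49 and -0.88), the initiation factor Mtif2 (-0.27 and -0.58) and Lrpprc, which stabilises mitochondrial messenger RNAs (-0.79 and -0.61), were lower too. Under total counts 5 factors were higher and 5 lower at Day+3, and 1 was higher and 8 lower at Day+7. Of 11 mitochondrial aminoacyl-tRNA synthetases, 5 were higher and 5 lower at Day+3, and 5 higher and 6 lower at Day+7. Mars2 (-0.82 and -1.62) and Iars2 (-0.72 and -0.86), which charge methionine and isoleucine tRNAs, were lower, and Cars2 (0.51 and 0.53) and Fars2 (0.48 and 0.48), for cysteine and phenylalanine, were higher. Lars2 averaged 201 ± 122 CPM at Day-1, 1254 ± 887 at Day+3 and 1008 ± 728 at Day+7. Its tumors spread widely, from 105 to 603 CPM at Day-1, 346 to 2445 at Day+3 and 348 to 2204 at Day+7. Of 11 genes of mitochondrial RNA synthesis and processing, 6 were higher and 5 lower at Day+3, and 2 higher and 7 lower at Day+7.

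Regulators of nuclear genes for mitochondria were mostly lower, 6 of 8 at each later day. Gabpa, the DNA-binding subunit of GABP, averaged 152 ± 11.6 CPM at Day-1, 75.4 ± 6.14 at Day+3 and 81.5 ± 2.49 at Day+7, with no overlap between Day-1 and later tumors. Nrf1, whose motif was counted above, averaged 72.8 ± 4.05, 55.5 ± 1.82 and 53.4 ± 2.21 CPM, and Myc, a growth regulator, 159.7 ± 33.9, 37.7 ± 2.69 and 61.5 ± 8.70 CPM. Hcfc1, a co-activator, was lower by -1.22 and -1.10, and Nfe2l2, the oxidative stress regulator, was higher by 0.54 and 0.87.

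The products of the 2 genomes of the respiratory chain differed in direction. Of 65 nuclear genes for respiratory chain subunits, 49 were higher and 12 lower at Day+3, and 54 higher and 6 lower at Day+7, with medians of 0.47 and 0.64. Those called higher made up 75.4% and 83.1%, against 37.9% and 43.0% of all genes. Genes after Pax7 in the alphabet, among them those named Sdh and Uqcr, were not analysed here. These counts therefore cover only part of the nuclear respiratory chain genes. The 13 messenger RNAs encoded in mitochondria, the templates of the mitoribosome, summed to 60480.5 ± 4013 CPM at Day-1 (SD, n = 26), 30224 ± 3063 at Day+3 and 28772 ± 2712 at Day+7 (n = 10 each). At each later day 12 of the 13 were lower. The exception was mt-Co3, with log2 fold changes of 0.07 (edgeR adjusted p = 0.2675) and 0.25 (edgeR adjusted p = 7.196e-05), and with total counts it was called at Day+3 and not at Day+7. Of the ribosomal RNAs of mitochondria, mt-Rnr1 was higher at both days (0.86 and 1.59) and mt-Rnr2 at Day+7 (0.85), but their levels depend on how ribosomal RNA was removed.

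Cell types and proliferation moved strongly over the same days. Summed levels were 5937 ± 367 CPM at Day-1, 3898 ± 271 at Day+3 and 1710.5 ± 270.3 at Day+7 for 24 genes of cell division, and all 24 were lower at Day+7. Leukocyte markers summed to 1481 ± 245, 1803 ± 167 and 6779 ± 1024 CPM with all 7 higher at Day+7, and macrophage markers to 3355 ± 601, 8544 ± 708 and 14701 ± 2426 CPM with all 8 higher. Single genes were less uniform at Day+3, when 4 of the cell division genes were higher and 16 lower. Of the leukocyte markers 4 were then higher and 2 lower, and of the macrophage markers 6 were higher and 1 lower. The macrophage sum included Lyz2 at 1583 CPM at Day-1 and 6142 at Day+3. Mesothelial markers summed to 399 ± 81.2, 383 ± 67.7 and 68.2 ± 23.3 CPM. The part of the mix of cells in the changes of single members was not tested.

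The change between days went with the length of the transcript. At Day+3 the median log2 fold change was 0.21 for the 13 members with transcripts under 700 bases, 0.25 for 17 of 700 to 1000 bases, 0.14 for 19 of 1000 to 1500, 0.09 for 16 of 1500 to 3000 and -0.08 for 13 over 3000. Protein-coding genes as a whole ran the same way, with medians of 0.42, 0.39, 0.26, 0.10 and -0.22 in these bins. At Day+7 the medians were 0.26, 0.14, 0.22, -0.01 and -0.13 for members and 0.64, 0.53, 0.38, 0.12 and -0.23 for protein-coding genes. Spearman's rho with length across genes, which are not independent replicates, was -0.275 and -0.335 for the members and -0.333 and -0.248 for 9255 protein-coding genes. The median transcript length was 1224 bases for the members and 2616 for protein-coding genes. The part of this relation in the members' changes was not tested.

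**Figure D4:**
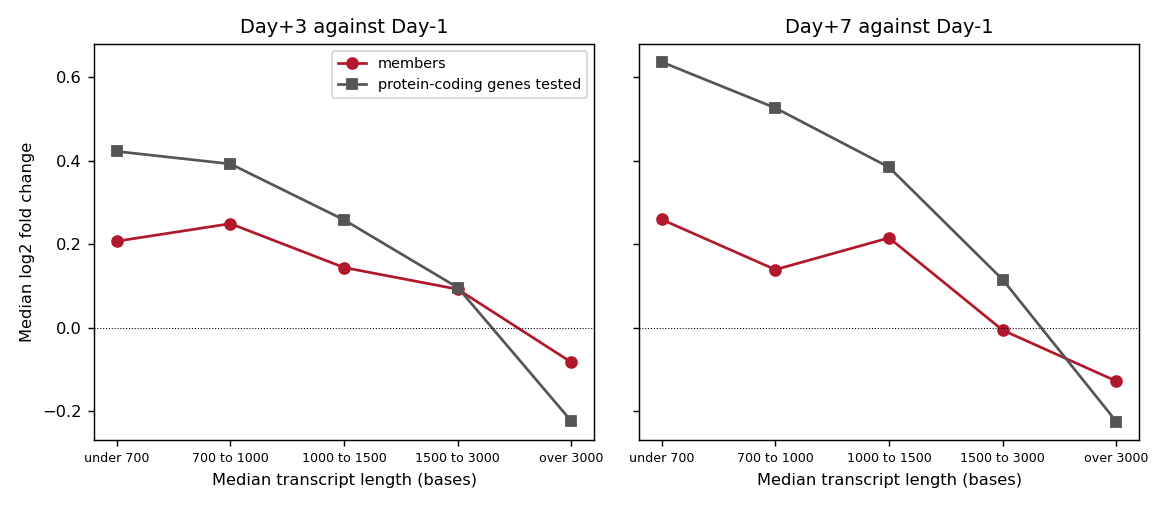
Median log2 fold change of members and of all protein-coding genes tested by length of the transcript, Day+3 against Day-1 and Day+7 against Day-1. In both series the median is lowest in the longest bin, and in the 3 shortest bins the members lie below protein-coding genes of the same length.

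The question of the response groups is whether tumors that would regress differed from those that would not. For the members no difference passed the test at any day. Before CY, 0 of 78 members were called in CR against PR tumors, and of 10777 genes tested 0% were called higher and 0.00928% lower. At an unadjusted p under 0.05, 7 members were lower in CR and 0 were higher, a share of 8.97% against 17.5% of all genes. The log2 fold changes were small and mostly below 0, with 65 of 78 members (83.3%) negative against 52.7% of all genes tested, a median of -0.04 against -0.01, and a range of -0.14 to 0.06. DESeq2 called 2 members lower and limma-voom with quality weights 5, where these tools called 1.96% and 4.40% of all genes lower and 2.15% and 6.63% higher. Leaving out 1 tumor gave 0 to 3 members called lower, with 3 without PR Day-1 replicate 7, 2 without PR Day-1 replicate 9, and 1 without CR Day-1 replicate 3 or PR Day-1 replicate 12. In these 4 fits the share of all genes called was 5.09% higher and 2.98% lower, 2.31% and 1.76%, 2.66% and 1.48%, and 2.33% and 1.23%, so the members' counts were near the background or little above it.

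Mrpl50, a large subunit protein particular to mitochondria (chromosome 4, 49512596 to 49521093, minus strand), had the smallest p. It ran from 44.1 to 54.9 CPM in CR tumors with a median of 50.6, against 49.1 to 60.6 in PR tumors with a median of 55.7, so the groups overlapped. Its log2 fold change was -0.13 (SE 0.0342, edgeR adjusted p = 0.1327), and it was called by DESeq2 (adjusted p = 0.0399) and limma-voom (adjusted p = 0.0281). Mrpl18, whose bacterial counterpart binds 5S ribosomal RNA, averaged 72.5 ± 2.75 CPM in CR and 76.9 ± 4.27 in PR tumors (SD, n = 13 each), a change of -0.09 (edgeR adjusted p = 0.1572). Mrps9 averaged 59.9 ± 4.01 CPM in CR and 64.3 ± 4.66 in PR tumors, a change of -0.10 (edgeR adjusted p = 0.1902). On the other side, Mrpl14, Mrps12 and Mrpl36 had changes of 0.05, 0.06 and 0.04, none of which passed the test (edgeR adjusted p = 0.5565, 0.6388 and 0.7096).

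In other lists too most genes leaned 1 way between CR and PR before CY, and 0 genes of the lists named here passed the adjusted test. All 24 genes of cell division had negative log2 fold changes in CR against PR, with a median of -0.10 and sums of 5746 ± 313 CPM in CR and 6128 ± 322 in PR tumors, and 14 had an unadjusted p under 0.05. Of the 65 nuclear respiratory chain genes 54 were negative, with a median of -0.04. All 7 leukocyte markers were positive, with a median of 0.30, 5 at an unadjusted p under 0.05, and sums of 1268 to 2159 CPM in CR and 1144 to 1792 in PR tumors. All 7 T cell markers were positive and at an unadjusted p under 0.05, with a median of 0.68 and sums of 38.9 to 143 CPM in CR and 22.4 to 106 in PR tumors, and all 6 skeletal muscle markers were positive, with a median of 0.59, 3 at an unadjusted p under 0.05, and sums of 141 to 899 CPM in CR and 106 to 574 in PR tumors. The summed level of macrophage markers was 3551 ± 627 CPM in CR and 3159.7 ± 526 in PR tumors, with all 8 positive. Both mesothelial markers tested were negative, with a median of -0.51 and both at an unadjusted p under 0.05, and the 7 covered had sums of 288 to 426 CPM in CR and 302 to 611 in PR tumors. The part of these in the members' values was not tested.

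At Day+3, 0 members were called between CR and PR tumors, and 0% of 11839 genes tested were called higher and 0% lower. Mrps28, a small subunit member, was the only member at an unadjusted p under 0.05. It measured 23.3, 24.5, 24.6, 25.1 and 23.2 CPM in CR tumors, against 27.1, 29.6, 24.4, 25.1 and 29.0 in PR tumors, a log2 fold change of -0.16 (SE 0.0698, edgeR adjusted p = 1) with overlap between the groups. By p, Mrps18c (-0.08) and Mrps23 (-0.08) were next on the lower side, and Mrpl37 (0.05), Mrps10 (0.09) and Mrpl10 (0.05) on the higher side. The median over the members was -0.01, and 48 of 78 were negative. DESeq2 and limma-voom called 0 members too.

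At Day+7, 0 members were called between CR and PR tumors by edgeR, DESeq2 or limma-voom, 0 of them passed an unadjusted p of 0.05 in edgeR, and 0% of 11727 genes tested were called higher and 0% lower. The members ranged from -0.24 for Mrpl34 to 0.13 for Mrps27, with a median of 0.00. Mrpl34, a counterpart of bacterial L34, measured 14.5, 13.1, 14.6, 16 and 20 CPM in CR tumors, against 14.6, 18, 22.6, 19.5 and 17.6 in PR tumors (SE 0.141). Mrps27, a small subunit protein that binds RNA, measured 38.0, 35.9, 42.3, 31.1 and 37.5 CPM in CR tumors, against 35.7, 33.5, 34.2, 33.4 and 32.1 in PR tumors (SE 0.0741). Both pairs of groups overlapped. Mrpl32 (0.12) and Mrpl22 (0.13) were the other members with the smallest p on the higher side, and Mrpl44 (-0.11) and Mrpl19 (-0.10) on the lower side, and the value of Mrpl19 became 0.05 without the tumors above 10 CPM of Krt5. With a median SE of 0.0697 on the log2 scale, differences of this size could not be told from 0 with 5 tumors in each group.

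**Figure D5:**
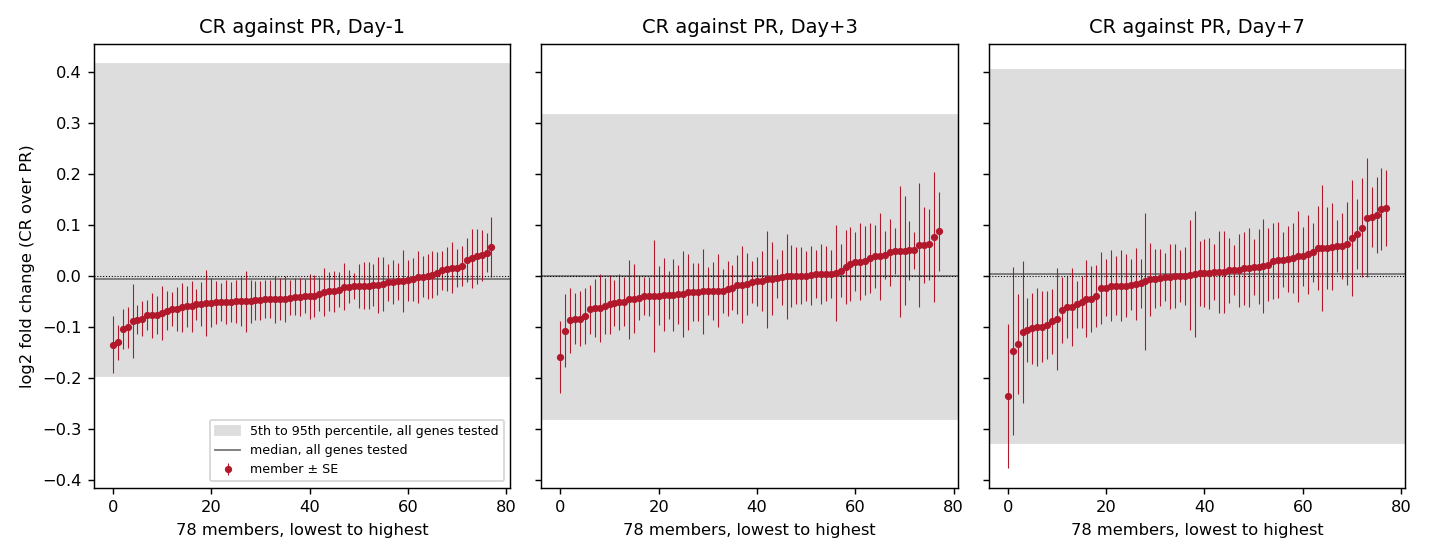
Log2 fold change of each of the 78 members with its SE, CR against PR tumors, at Day-1, Day+3 and Day+7, with a grey band from the 5th to the 95th percentile of all genes tested. The points of all 78 members lie inside the band at each day, and 65 of 78 lie below 0 at Day-1.

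The change of the difference between CR and PR tumors with time was tested directly. From Day-1 to Day+3, 0 members were called, 0 passed an unadjusted p of 0.05, 0% of 13194 genes were called higher and 0% lower, and the members with the smallest p were Mrpl19 (0.13, SE 0.0706) and Mrpl50 (0.12, SE 0.0725), both at an edgeR adjusted p of 1. From Day-1 to Day+7, 0 members were called, with 0.00758% of genes higher and 0% lower. At an unadjusted p under 0.05 were Mrpl49 (0.13, SE 0.0580), Mrpl32 (0.15, SE 0.0701) and Mrps27 (0.19, SE 0.0900), with edgeR adjusted p of 0.3979, 0.4064 and 0.4206. DESeq2 and limma-voom called 0 members in both of these tests.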

How the data were processed

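RNA of 46 tumors was sequenced and read counts per gene were deposited by the authors in 1 table of raw counts, made with kallisto (version not given in the sources used here) and GRCm38.p6 according to the submitters' processing notes. The table is sorted by symbol and its last row, of Pax7, is incomplete. The 46011 complete rows were used, genes after it in the alphabet were not analysed here, and 0 columns of per-tumor values were left unused. Groups came from the labels. Counts were scaled by TMM and tested in edgeR 4.0.16 (R 4.3.3) by the quasi-likelihood test after its default filter on low counts, with Benjamini-Hochberg adjustment over all genes tested and a threshold of 0.1. CR and PR were compared in the tumors of a day, and days in 1 model of all 46 tumors with CR and PR weighted equally. Fold changes are log2. Alternatives were DESeq2 1.42.0, limma-voom (limma 3.58.1), other scalings, filters, thresholds and samples, each tumor left out in turn and, chosen after seeing the data, edgeR's revised quasi-likelihood fit. Positions, lengths and shared 31-base words came from GENCODE release 21 for mouse. The procedure was tested on simulated data in which a small share of the genes was changed, in random directions. Between days most genes were called, so the simulation could not test the scaling there. Totals ran from 10227681 to 19446596 counts per tumor, and p-values weigh a difference between groups against the spread between tumors.

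The members, the gene lists and the tests were chosen with earlier results of these data known. Members were named by p, taking 5 on either side for each pair of days, 3 on either side for CR against PR and 2 for each test of a difference, besides the 4 highest and the 4 lowest per kilobase, and the paralogs Mrps18a, Mrps18b and Mrps18c. From other lists up to 4 genes with the smallest p at Day+7 were named. Myc, mt-Co3, Lars2, Lyz2, Mrpl3, Mrpl58, Mrps14, Mrps5, Mrps35 and Mrps11 were named after their values were seen.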

Additional observations from a re-analysis of the deposited data

Results flagged for a closer look

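In 5 of 184 groups of 5 tumors examined over 43 named members and 3 summed levels, 1 tumor stood apart from the other 4 by more than Dixon's critical value for the gap as a share of the range (0.71), and chance flags about 1 in 20 groups. For Mrpl50, CR Day+3 replicate 3 was highest at 39.7 CPM, with the next tumor at 38.0 CPM, and PR Day+7 replicate 5 was lowest at 35.8 CPM, with the next at 41.6 CPM. For Mrps22, CR Day+3 replicate 5 was highest at 27.7 CPM, with the next at 24.5 CPM. For Mrpl18, PR Day+3 replicate 2 was highest at 93.6 CPM, with the next at 88.4 CPM. For Mrpl1, PR Day+7 replicate 1 was highest at 28.7 CPM, with the next at 26.7 CPM.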

How the results depend on the processing

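In CR against PR tumors at Day-1, the count of members called lower was 0 in edgeR, 2 in DESeq2 and 5 in limma-voom. Of all genes, DESeq2 called 1.96% lower and 2.15% higher, and limma-voom 4.40% lower and 6.63% higher. Leaving out 1 tumor gave 0 to 3 members called lower, where up to 2.98% of all genes were called lower and up to 5.09% higher. With total counts in place of TMM, 14 members were lower at Day+3 (median 0.256), 38 were lower at Day+7 (median -0.061), and 5 were higher and 63 lower at Day+7 against Day+3 (median -0.272), with the median of all genes moving as well. Without the tumors above 10 CPM of Krt5, 15 members were lower at Day+3 (median 0.216). The cause of the differences between tools and without these tumors was not tested. With 1 tumor left out, the median of members for Day+7 against Day+3 ran from -0.044, without PR Day+7 replicate 3, to 0.039. Over the tumors left out, the count of members higher was 43 to 48 at Day+3 and 40 to 43 at Day+7, and the count lower was 19 to 24 and 23 to 24. Each summary value was set against its value under each alternative. With a tumor left out, 433 such pairs stayed within the limits (1.5 times for a count, 1 SD for a median) and 5 did not, and under the other alternatives 241 did and 11 did not. Pairs with 0 members called in both fits are among those within the limits. So is the count of members higher at Day+7, 41 with TMM and 30 with total counts, so the tally is no measure of stability. No paired analysis was possible because every mouse gave 1 sequenced tumor, and no label ties a number of a CR tumor to one of a PR tumor or of another day.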

Other observations

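Some members outside the rule for naming also changed without overlap between tumors. Mrps14, a counterpart of bacterial S14, averaged 48.0 ± 5.17 CPM at Day-1, 85.3 ± 5.64 at Day+3 and 83.9 ± 3.79 at Day+7, with log2 fold changes of 0.83 and 0.81 against Day-1. Mrps5, a counterpart of bacterial S5, averaged 66.9 ± 5.40, 49.9 ± 2.76 and 49.6 ± 4.08 CPM, and at Day+3 all tumors lay below Day-1. Mrps35, a small subunit protein particular to mitochondria, averaged 56.7 ± 3.93, 49.6 ± 2.55 and 43.0 ± 2.07 CPM, and at Day+7 all tumors lay below Day-1. Mrps11, a counterpart of bacterial S11, averaged 27.8 ± 2.54, 36.3 ± 4.37 and 28.3 ± 1.84 CPM, above Day-1 in all Day+3 tumors and close to its Day-1 mean at Day+7 (log2 fold change 0.03, edgeR adjusted p = 0.6542). The RNA of Mrpl58, which encodes a peptidyl-tRNA hydrolase that became part of the large subunit, changed by 0.07 and -0.01 at the 2 later days, and neither passed the test.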
